A study of Homo sapiens with 6 samples.

Results

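The 10 genes described here belong to the circadian clock of human cells: the nuclear receptor genes NR1D1 and NR1D2, the period genes PER1, PER2 and PER3, the cryptochrome genes CRY1 and CRY2, the transcription factor genes DBP and TEF, and CLOCK. They were taken by symbol from a table of 60691 genes; all 10 were found once and all 10 were among the 16591 genes tested. RNA had been sequenced from SW1353, an established human line from a chondrosarcoma, a cancer whose cells make cartilage matrix. There were 6 libraries, 3 biological replicates each of shfirefly and shSIRT1, both made from cells transduced with a lentivirus that carried a short hairpin RNA. All 6 came from cells held at 37 °C and 3% oxygen for 48 h after seeding. The control hairpin is directed at firefly luciferase, which human cells lack, and the other is labelled SIRT1, an NAD+-dependent deacetylase. No untransduced or normal-oxygen group was analysed, so the effect of low oxygen itself could not be read.

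The mammalian clock is a feedback loop of transcription. CLOCK, or its relative NPAS2, pairs with BMAL1 (gene ARNTL) and activates genes through a DNA sequence called the E-box. Among these genes are the PER and CRY genes, whose proteins return to inhibit CLOCK and BMAL1, and NR1D1 and NR1D2, which encode the REV-ERB repressors that hold down ARNTL in competition with the activating ROR receptors. DBP and TEF act through a further sequence, the D-box, where NFIL3 opposes them. SIRT1 is known to bind CLOCK and to deacetylate BMAL1 and PER2, and BMAL1 belongs to the same protein family as ARNT, the partner of the hypoxia-inducible factors (HIFs). The labels give no time of day and no synchronisation of the cells, and each culture was read once. A change in the mean level of a rhythmic transcript and a shift of its phase therefore cannot be told apart, nor can fewer cells making a transcript and less RNA per cell.

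SIRT1 mRNA was 24.9 ± 0.984 CPM in shfirefly and 13.6 ± 0.953 CPM in shSIRT1 (SD, n = 3), where CPM is the read count over the library size, corrected with TMM factors. EPAS1, the HIF-2α gene, fell too, from 456 ± 40.8 to 233 ± 10.5 CPM (SD, n = 3). The treatment protocol in the labels names EPAS1 as the hairpin's target while every other label names SIRT1, and both genes fell, so these levels do not settle the naming; "shSIRT1" stands for the libraries so labelled. Library totals ran from 24993064 to 32044191 counts, and the 10 clock genes had 161 to 2655 counts per library. Of 12 cartilage and mesenchymal markers, VIM, COL1A1, COL1A2, SPARC and SOX9 were present. SOX5 and SOX6 were nearly absent, with means of 0.0109 and 0.102 CPM in shfirefly and 0.0363 and 0.0652 CPM in shSIRT1. Of the cartilage matrix genes, COL9A1 was at 0 in all libraries, COL2A1 had means of 0.0340 and 0.332 CPM, and COL11A1 was below 1 CPM throughout. ACAN was detected at 1.51 ± 0.270 and 0.679 ± 0.194 CPM and MATN3 at 3.78 ± 0.254 and 4.81 ± 0.330 CPM (SD, n = 3; shfirefly, then shSIRT1). The summed level of the 12, mostly VIM, COL1A1, SPARC and COL1A2, was 15230 to 16282 CPM in shfirefly and 11661 to 11747 CPM in shSIRT1. MATN3 and SOX9 went against this sum, SOX9 with 43.7 ± 2.54 CPM in shfirefly and 53.1 ± 1.17 CPM in shSIRT1 (SD, n = 3). Of 14 markers of other cell types, 10 were below 1 CPM in every library and none was at 0 in all, and their sum, mostly KRT18, was 254 to 263 CPM against 302 to 317 CPM. The part of these shifts in the results below was not tested. Among the controls, shfirefly replicate 3 stood apart: its mean chi-square per gene was 5.80 and 6.10 against the other controls, which differed from each other by 2.82, and 57.4 to 66.7 against the shSIRT1 libraries, where the other controls had 76.5 to 89.7. Without it the 8 calls among the clock genes remained, with log2 fold changes of -1.51 for NR1D1 and 0.74 for CLOCK, whereas the calls of RORA and GSK3A were lost.

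The promoters of these genes were searched for the sequences through which the loop acts. The stretches that hold a match are shown because they set members that fell beside members that rose or did not pass the test. RefSeq gives 15 start-site windows for the 10 genes on GRCh38.p14, each 300 bases long, from 250 before to 50 after the start; 5 genes have 2 starts, which gene-level counts cannot separate. The windows were searched on both strands for the E-box CACGTG, the E′-box CACGTT and the D-box TTANGTAA. Each line gives up to 20 bases on either side of a match, 5′ to 3′ on the gene's strand, with the matched bases in capitals (a match on the other strand reads as its reverse complement).
NR1D1 E′-box, chr17:40100732-40100777, minus strand: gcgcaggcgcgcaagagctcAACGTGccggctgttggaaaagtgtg
NR1D2 D-box, chr3:23945907-23945954, plus strand: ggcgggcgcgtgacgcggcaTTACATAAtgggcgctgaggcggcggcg
NR1D2 E-box, chr3:23945946-23945991, plus strand: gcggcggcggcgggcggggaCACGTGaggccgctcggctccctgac
NR1D2 E-box, chr3:23945996-23946041, plus strand: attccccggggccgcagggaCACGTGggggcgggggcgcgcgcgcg
PER1 E-box, chr17:8152552-8152597, minus strand: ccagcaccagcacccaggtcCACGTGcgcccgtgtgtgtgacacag
PER2 E′-box, chr2:238288782-238288827, minus strand: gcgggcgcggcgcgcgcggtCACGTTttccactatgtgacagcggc
PER2 D-box, chr2:238288586-238288633, minus strand: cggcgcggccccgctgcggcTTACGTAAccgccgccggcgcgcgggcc
PER3 D-box, chr1:7784094-7784141, plus strand: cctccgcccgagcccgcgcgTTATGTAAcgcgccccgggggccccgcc
TEF E-box, chr22:41367240-41367285, plus strand: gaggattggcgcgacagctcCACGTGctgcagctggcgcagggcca
TEF E-box, chr22:41381729-41381774, plus strand: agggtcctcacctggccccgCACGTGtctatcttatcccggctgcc
CRY1 E′-box, chr12:107093613-107093658, minus strand: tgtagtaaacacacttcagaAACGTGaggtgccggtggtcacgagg
CRY2 E′-box, chr11:45847267-45847312, plus strand: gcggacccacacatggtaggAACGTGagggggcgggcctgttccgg
CLOCK E′-box, chr4:55546094-55546139, minus strand: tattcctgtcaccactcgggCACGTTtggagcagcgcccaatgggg

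The E-box was found in 4 of the 15 windows, belonging to 3 genes, against 7.26% of all 35116 RefSeq windows. The E′-box was found in 5 windows of 5 genes (5.34% of all windows) and the D-box in 3 windows of 3 genes (2.18%). The D-box and the E′-box were each held both by genes that fell and by genes that did not. PER2 and PER3 each hold a D-box, and NR1D1 and CRY1 each hold an E′-box. In these windows the E-box was held only by NR1D2, PER1 and TEF, all of which fell, while NR1D1, PER2 and DBP fell without it. DBP held none of these letters in its window. The core of the ROR and REV-ERB element, TAGGTCA, was found in 1 window, that of CRY2 (1.85% of all windows), and the cAMP response element TGACGTCA in none (1.85%). ACGTG, the core bound by HIFs, was found in 10 windows of 8 genes (21.4% of all windows), but every E-box and E′-box contains it. Outside those boxes it stood in 4 windows of 3 genes, NR1D1, PER2 and CRY2, against 10.8% of all windows. A match is a description of the sequence only.

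Most of the clock genes were lower in shSIRT1. NR1D1, DBP, PER1, TEF, PER2 and NR1D2 fell, CLOCK and CRY1 rose, and PER3 and CRY2 did not pass the test (edgeR quasi-likelihood test, Benjamini-Hochberg adjusted p under 0.05 over all genes). Thus 8 of 10 were called, against 52.8% of all genes tested. The 6 that fell compare with 26% of all genes called lower and the 2 that rose with 26.8% called higher. The fall reached 1.5-fold in 4 genes (NR1D1, DBP, PER1 and TEF), where 9.52% of all genes fell that far, and the rise reached it in CLOCK, where 7.32% of all genes rose that far. Controls and shSIRT1 libraries had separate ranges in 8 genes, against 59.7% of all genes (6 lower against 29.4%, 2 higher against 30.4%). The median log2 fold change of the 10 was -0.39 and that of all genes tested was 0.0047. Scaling by library totals alone called 6225 genes higher and 3021 lower in place of 4449 and 4311, with a median of 0.13 over all genes, and left the 6 falls and 2 rises of the clock genes called. With transcript GC and length entered as an offset, the test left the 6 falls and 1 of the 2 rises.

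**Figure D1:**
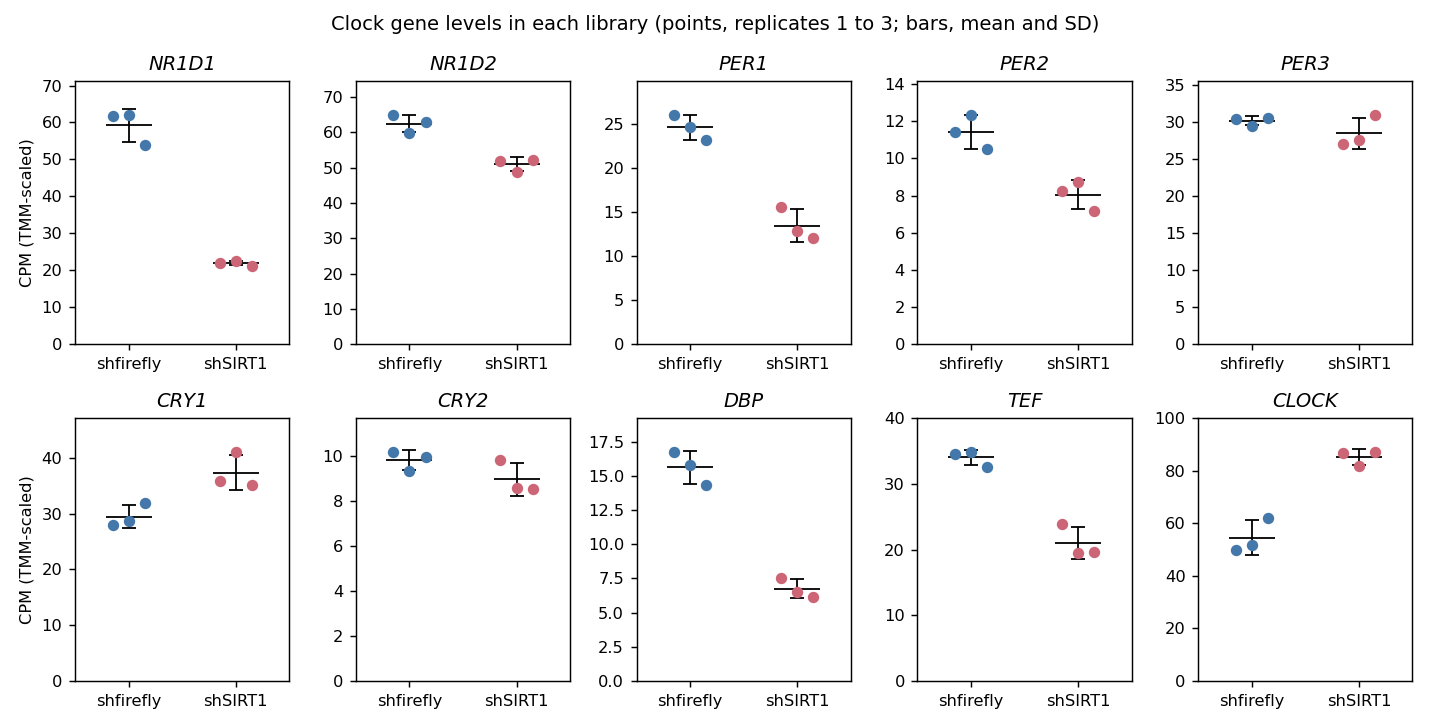
CPM of each of the 10 clock genes in the 6 libraries (vertical axes from 0, points for replicates 1 to 3, bars for mean and SD, n = 3). NR1D1 sat between 54.0 and 61.9 CPM in shfirefly and between 21.3 and 22.4 CPM in shSIRT1, whereas the PER3 and CRY2 points of the groups overlapped.

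CLOCK, the DNA-binding activator of the loop, rose. Its libraries stood at 49.96, 51.6 and 62.0 CPM in shfirefly and at 86.5, 81.8 and 87.0 CPM in shSIRT1. Every shSIRT1 library was above every control, and shfirefly replicate 3 was the highest control. The means were 54.5 ± 6.53 and 85.1 ± 2.89 CPM (SD, n = 3), a 1.56-fold rise (log2 fold change 0.64 ± 0.07 SE, adjusted p = 1.1e-05), and 1030 genes rose by more. With the offset for GC content and length the log2 fold change was 0.39 (adjusted p = 1.1e-06). The gene spans chr4:55427903-55547138 (minus strand, protein-coding).

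The partners of CLOCK and its relative NPAS2 moved little. ARNTL, which encodes BMAL1, had 31.3, 29.6 and 33.2 CPM in shfirefly and 30.02, 28.6 and 27.1 CPM in shSIRT1, with overlapping ranges and a difference in log2 level of -0.13 ± 0.06 (SE) that missed the threshold (adjusted p = 0.080). It passed with upper-quartile scaling (-0.18), with the GC and length offset (-0.19) and without shfirefly replicate 2 (-0.17). NPAS2, which can take the place of CLOCK, had 35.7 ± 0.914 and 38.6 ± 1.52 CPM (SD, n = 3), with narrowly separate ranges. Its log2 difference was 0.11 ± 0.05 (SE; adjusted p = 0.089), and it passed only with scaling by library totals among the alternatives run (0.23). ARNTL2, which encodes BMAL2, rose from 133 ± 5.63 to 153 ± 3.21 CPM (SD, n = 3), a small rise (log2 fold change 0.20 ± 0.04 SE, adjusted p = 0.00026). ARNTL2 stood at 0.32 with library totals, and its call was lost with the GC and length offset (0.05, adjusted p = 0.34).

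The 3 period genes, whose proteins form the inhibitory complex with the cryptochromes, differed among themselves. PER1 stood at 25.96, 24.7 and 23.2 CPM in shfirefly and at 15.5, 12.9 and 11.997 CPM in shSIRT1. The groups were well apart, and the shSIRT1 libraries spread more widely than the controls (coefficients of variation 13.6% and 5.69%). PER1 fell 1.82-fold (log2 fold change -0.87 ± 0.09 SE, adjusted p = 4.3e-08). PER2 stood at 11.4, 12.3 and 10.5 CPM in shfirefly and at 8.25, 8.74 and 7.18 CPM in shSIRT1. The lowest control was above the highest shSIRT1 library, and the fall was 1.41-fold (log2 fold change -0.50 ± 0.10 SE, adjusted p = 0.0003). PER3 stood at 30.5, 29.5 and 30.6 CPM in shfirefly and at 27.0, 27.6 and 30.9 CPM in shSIRT1. Replicate 3 of shSIRT1 was the highest of all 6 libraries, and the log2 fold change, -0.09 ± 0.06 (SE), missed the threshold (adjusted p = 0.27). With library totals alone PER3 had a log2 fold change of 0.035. PER1 lies at chr17:8140472-8156506 (minus strand), PER2 at chr2:238244038-238290102 (minus strand) and PER3 at chr1:7784320-7845177 (plus strand), all protein-coding.

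The cryptochromes parted as well. CRY1, which encodes the stronger repressor of CLOCK and BMAL1, stood at 27.9, 28.7 and 31.8 CPM in shfirefly and at 35.9, 41.1 and 35.2 CPM in shSIRT1. All 3 shSIRT1 libraries were above the controls, and the rise was 1.27-fold (log2 fold change 0.34 ± 0.07 SE, adjusted p = 0.00023). The CRY1 call was lost with the GC and length offset (log2 fold change 0.14, adjusted p = 0.099). CRY2 stood at 10.2, 9.32 and 9.94 CPM in shfirefly and at 9.81, 8.55 and 8.52 CPM in shSIRT1. The ranges overlapped through shSIRT1 replicate 1, and the log2 fold change, -0.13 ± 0.10 (SE), missed the threshold (adjusted p = 0.28). CRY1 lies at chr12:106991364-107093829 (minus strand) and CRY2 at chr11:45847118-45883248 (plus strand), both protein-coding.

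All 3 E-box repressors outside the PER and CRY families fell, where 26% of all genes were called lower. BHLHE40, which encodes DEC1, a repressor that competes at the E-box and is also known to be induced by low oxygen, had 452, 446 and 442 CPM in shfirefly and 309.9, 291 and 301 CPM in shSIRT1. The fall was 1.49-fold (log2 fold change -0.57 ± 0.04 SE, adjusted p = 2.6e-11). BHLHE41, which encodes its relative DEC2, fell 1.96-fold, from 125 ± 4.25 to 64.0 ± 2.59 CPM (SD, n = 3), a log2 difference of -0.97 ± 0.04 (SE; adjusted p = 1.8e-13). CIART, a further repressor of CLOCK and BMAL1, fell 1.41-fold from 16.6 ± 1.46 to 11.8 ± 0.440 CPM (SD, n = 3; adjusted p = 4.4e-05).

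**Figure D2:**
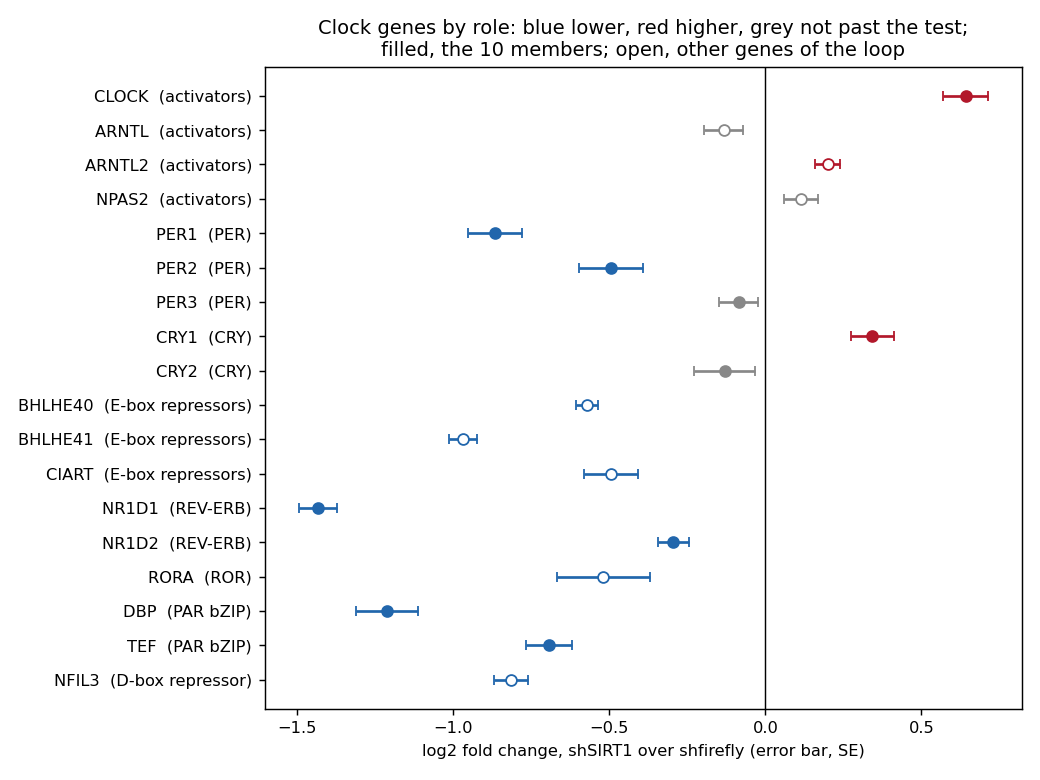
Log2 fold change of shSIRT1 over shfirefly (horizontal axis, error bars SE) for the 10 clock genes (filled) and for other genes of the loop of at least 1 CPM in shfirefly (open), grouped by role. CLOCK, ARNTL2, CRY1 and, short of the threshold, NPAS2 lie to the right of 0, and both REV-ERB genes, both PAR bZIP genes (DBP and TEF) and all 3 E-box repressors lie to the left.

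NR1D1, which encodes the repressor REV-ERBα, had the largest change of the 10 genes. It stood at 61.8, 61.9 and 54.0 CPM in shfirefly and at 22.03, 22.4 and 21.3 CPM in shSIRT1. The shSIRT1 libraries were tightly grouped (coefficient of variation 2.69%) and all were far below the lowest control. The means were 59.2 ± 4.51 and 21.9 ± 0.589 CPM (SD, n = 3), a 2.70-fold fall (log2 fold change -1.43 ± 0.06 SE, adjusted p = 5.9e-14), and 320 genes fell by more. Its close relative NR1D2, which encodes REV-ERBβ, stood at 64.8, 59.8 and 62.8 CPM in shfirefly and at 51.9, 48.7 and 52.2 CPM in shSIRT1. The ranges did not overlap, but the fall was only 1.23-fold (log2 fold change -0.29 ± 0.05 SE, adjusted p = 3.3e-05). The value for NR1D2 was -0.17 with scaling by library totals and -0.49 with the GC and length offset, and it passed the test with both. NR1D1 lies at chr17:40092787-40100725 (minus strand) and NR1D2 at chr3:23945260-23980618 (plus strand), both protein-coding.

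RORA, which encodes an activating ROR receptor that binds the same element as the REV-ERB proteins, was also lower. It had 24.4, 27.2 and 30.3 CPM in shfirefly and 21.4, 15.1 and 20.8 CPM in shSIRT1. The groups did not overlap but varied widely within themselves, and the fall was 1.43-fold (log2 fold change -0.52 ± 0.15 SE, adjusted p = 0.026). The RORA call was lost without shfirefly replicate 2 (adjusted p = 0.087), without shfirefly replicate 3 (0.085) and with scaling by library totals (0.071), and the log2 value was -0.81 with the GC and length offset. RORB, a related receptor gene, had 1 count in all 6 libraries and was not tested.

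DBP and TEF, which encode transcription factors that activate genes through the D-box and are themselves driven by the E-box, both fell. DBP stood at 16.7, 15.8 and 14.4 CPM in shfirefly and at 7.50, 6.52 and 6.15 CPM in shSIRT1. The highest shSIRT1 library was well under the lowest control, and the fall was 2.32-fold (log2 fold change -1.21 ± 0.10 SE, adjusted p = 1.3e-09), with 470 genes falling by more. TEF stood at 34.6, 34.8 and 32.6 CPM in shfirefly and at 23.9, 19.5 and 19.6 CPM in shSIRT1. Its ranges were separate as well, and the fall was 1.62-fold (log2 fold change -0.69 ± 0.07 SE, adjusted p = 8e-08). DBP lies at chr19:48630030-48637438 (minus strand) and TEF at chr22:41367333-41399326 (plus strand), both protein-coding.

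NFIL3, the repressor that opposes DBP and TEF at the D-box, fell in the same direction. It went from 47.2 ± 1.52 to 26.8 ± 0.405 CPM (SD, n = 3), a 1.76-fold fall (log2 fold change -0.82 ± 0.05 SE, adjusted p = 5.9e-11). HLF, the remaining gene of the DBP and TEF family, had no counts in shfirefly and 5 in shSIRT1 and was not tested.

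**Figure D3:**
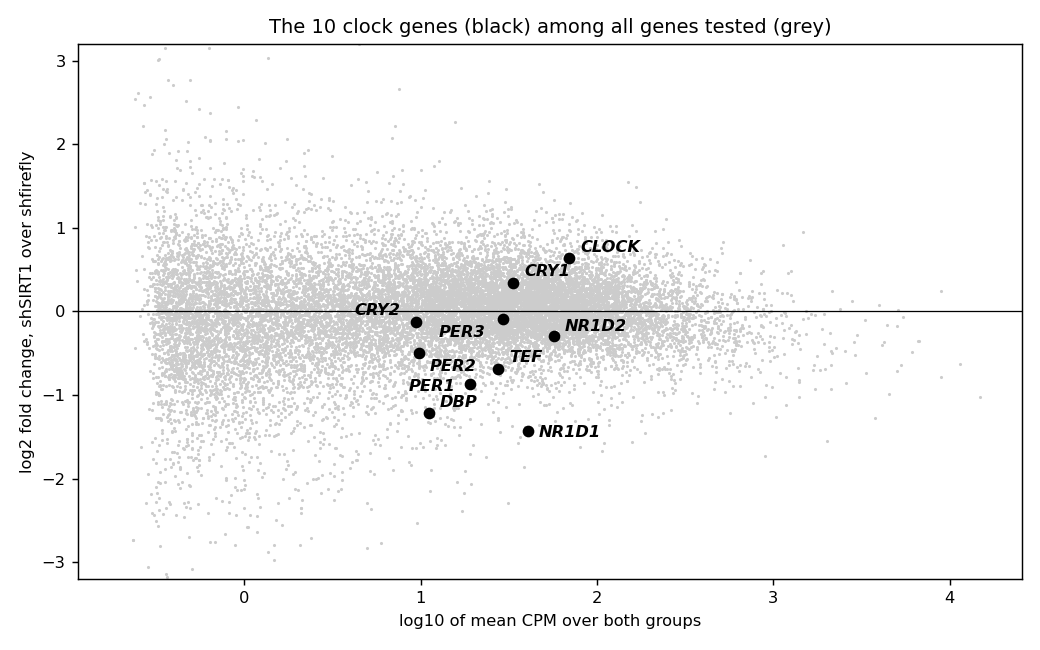
Log2 fold change (vertical axis, drawn to 3.2 on either side of 0, with 32 genes outside) against log10 of the mean CPM (horizontal axis) for the 16591 genes tested (grey) and the 10 clock genes (black). NR1D1 and DBP lie in the lower part of the cloud, with 320 and 470 called genes falling by more. CLOCK lies in its upper part, with 1030 called genes rising by more. The 10 genes had mean levels between the 42.9th and 81.6th percentile of all genes tested.

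Ratios between clock genes within a library do not depend on how libraries were scaled, and 10 such ratios were computed (0.5 was added to each count before taking log2). NR1D1 and NR1D2 had nearly equal counts in the controls, with ratios of 0.954, 1.04 and 0.861, whereas NR1D1 had fewer counts than NR1D2 in shSIRT1, with ratios of 0.425, 0.461 and 0.408. The log2 ratio differed by -1.14 between the groups (-0.08 ± 0.13 and -1.22 ± 0.09, SD, n = 3). The ratio of NR1D1 to ARNTL, the gene its product represses, was 1.97, 2.09 and 1.63 in shfirefly and 0.734, 0.786 and 0.785 in shSIRT1. In the controls NR1D1 had more counts than ARNTL in every library, and in shSIRT1 fewer. The ratio of CLOCK to ARNTL, which encode partners, rose from 1.60, 1.75 and 1.87 to 2.88, 2.86 and 3.21 counts of CLOCK per count of ARNTL. The log2 ratio differed by 0.78 (0.79 ± 0.11 and 1.58 ± 0.09, SD, n = 3).

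Within the families, PER1 lost ground against PER3, with log2 ratios of -0.30 ± 0.09 in shfirefly and -1.09 ± 0.28 in shSIRT1 (SD, n = 3), and PER2 did so by less (-1.41 ± 0.14 and -1.82 ± 0.24). CRY1 had 2.74, 3.08 and 3.201 counts per count of CRY2 in shfirefly and 3.65, 4.798 and 4.13 in shSIRT1. DBP had 0.484, 0.453 and 0.440 counts per count of TEF in shfirefly and 0.315, 0.334 and 0.314 in shSIRT1. The other ratios differed by -0.38 (PER1 to PER2), 0.54 (CLOCK to NPAS2) and -0.90 (NR1D1 to RORA) on the log2 scale. For each of the 10 ratios the groups did not overlap, and the exact two-sided permutation test gave p = 0.1 (0.1 after Benjamini-Hochberg adjustment over the 10), the smallest value that 3 against 3 allows. Many of the ratios share a gene and are not independent.

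**Figure D4:**
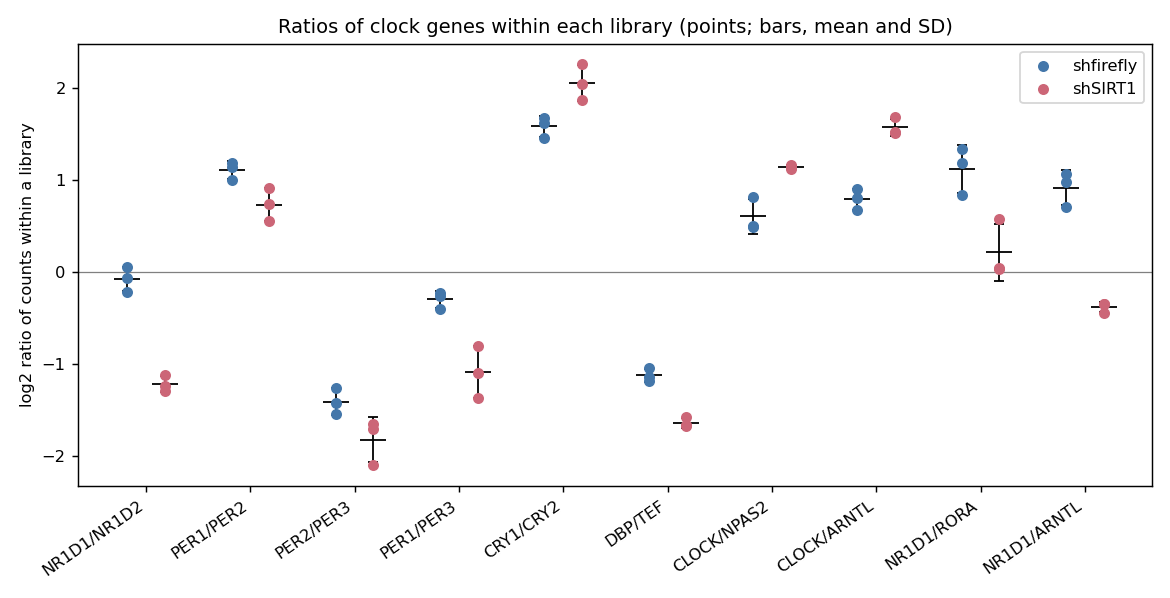
Log2 ratio of the counts of 2 clock genes in the same library (vertical axis, points for libraries, bars for mean and SD, n = 3) for 10 ratios. The NR1D1 to ARNTL ratio lies above 0 in the 3 shfirefly libraries and below 0 in the 3 shSIRT1 libraries.

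Levels of different genes were compared per length, as CPM per kilobase of all annotated exons. In shfirefly NR1D1 was the highest at 21.4 ± 1.63, followed by NR1D2 at 10.7 ± 0.429, TEF at 7.22 ± 0.255 and CRY1 at 5.83 ± 0.410 CPM per kilobase (SD, n = 3). CLOCK came next at 4.64 ± 0.555, then PER3 at 3.73 ± 0.0762 and PER1 at 3.51 ± 0.200, which overlapped, then DBP at 2.39 ± 0.183, PER2 at 1.66 ± 0.133 and CRY2 at 1.58 ± 0.0701 CPM per kilobase, the last pair overlapping. In shSIRT1 the order changed at the top: NR1D2 was at 8.75 ± 0.331, NR1D1 at 7.91 ± 0.212, CRY1 at 7.39 ± 0.633 and CLOCK at 7.24 ± 0.245 CPM per kilobase. NR1D1 and CRY1 overlapped there, as did CRY1 and CLOCK. DBP moved to the lowest place at 1.03 ± 0.106 CPM per kilobase, overlapping PER2 at 1.17 ± 0.116. The annotated exons of DBP cover 6544 bases, most of its span, so its level per kilobase rests on that annotation. With the longest annotated transcript as the length, CRY1 at 9.75 and NR1D2 at 9.69 CPM per kilobase lay close together at the top in shSIRT1. CLOCK at 8.26 CPM per kilobase then stood above NR1D1 at 7.91. In shfirefly NR1D1 still led.

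Enzymes that modify or degrade clock proteins changed little. Of 16 tested genes for such kinases, ubiquitin ligase parts and related proteins, 3 rose and 4 fell (43.8% called, against 52.8% of all genes), with a median log2 fold change of -0.05. CSNK1E, which encodes casein kinase 1 epsilon, a kinase that marks PER proteins for degradation, fell 1.26-fold from 113 ± 1.06 to 89.9 ± 0.612 CPM (SD, n = 3; adjusted p = 2.8e-07), with a log2 value of -0.33 that was -0.21 with library totals. CSNK1A1, another casein kinase 1 gene, fell by 0.18 in log2 CPM, a call that was lost with library totals (adjusted p = 0.19), and stood at -0.36 with the GC and length offset. TIMELESS, named for a fly clock gene and known in mammals mainly for its part at the replication fork, rose 1.26-fold from 83.2 ± 2.68 to 104.7 ± 4.31 CPM (SD, n = 3; adjusted p = 1.6e-06). GSK3A, a kinase of several clock proteins, rose by 0.17 on the log2 scale, a call lost with 6 of the 16 alternatives (adjusted p up to 0.17).

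Of 15 tested coregulators of the loop, 8 rose, 2 fell and 5 did not pass (66.7% called, against 52.8% of all genes, of which 26.8% were higher and 26% lower). Their median log2 fold change was 0.09. SFPQ, an RNA- and DNA-binding partner of the PER complex, rose 1.72-fold from 221 ± 29.1 to 381 ± 14.5 CPM, and the helicase gene DDX5, a further partner, rose 1.47-fold from 329.8 ± 18.6 to 486 ± 6.10 CPM (SD, n = 3; adjusted p = 0.0017 and 1.6e-10). HDAC3, which encodes a histone deacetylase that acts with the REV-ERB proteins, fell by 0.21 ± 0.04 (SE) in log2 CPM (adjusted p = 0.00015), and its call was lost with scaling by library totals (adjusted p = 0.070). It stood at -0.13 with the GC and length offset.

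Of 9 tested genes known as outputs of the clock in various tissues, 8 fell and 1 did not pass (88.9% lower, against 26% of all genes), with a median log2 fold change of -0.36. KLF9, a Krüppel-like transcription factor gene, fell 1.97-fold from 10.9 ± 1.58 to 5.54 ± 0.808 CPM (SD, n = 3; adjusted p = 1.3e-06). NAMPT, chosen after its values were seen, encodes the rate-limiting enzyme of NAD+ salvage, on which SIRT1 depends. It fell 1.28-fold from 385 ± 9.81 to 299.5 ± 10.9 CPM (SD, n = 3), a log2 difference of -0.36 ± 0.04 (SE; adjusted p = 5.4e-08). The value was -0.24 with library totals and -0.60 with the GC and length offset, and it passed the test with both. NAMPT is also a known target of other pathways, so the list is not specific to the clock.

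Genes induced by cAMP or glucocorticoid, signals that also act on PER1, were called no more often than genes at large. Of 10 tested, 1 rose, 3 fell and 6 did not pass (40% called and 30% lower, against 52.8% and 26% of all genes), and the median log2 fold change was -0.50. The groups had separate ranges in 6 genes, 5 of them lower, against 59.7% and 29.4% of all genes. Among those that did not pass, NR4A1, NR4A2, SIK1, FOSB and EGR1 had means of only 0.459 to 1.52 CPM in shfirefly, where a change is harder to call. PDK4, a kinase gene of fuel choice, fell 3.17-fold from 2.87 ± 0.580 to 0.917 ± 0.234 CPM, and the phosphatase gene DUSP1 fell 1.78-fold from 190.4 ± 7.85 to 106.9 ± 2.48 CPM (SD, n = 3; adjusted p = 3.5e-06 and 4.9e-13). FKBP5, a classical glucocorticoid target, rose 1.41-fold from 39.3 ± 1.99 to 55.5 ± 3.41 CPM (SD, n = 3; adjusted p = 1.6e-07). The share called depends on how genes were placed in lists. TSC22D3 and KLF9, counted above among the outputs, are also known to be induced by glucocorticoid, and both fell. For TSC22D3 the log2 fold change was -0.86 ± 0.07 (SE; adjusted p = 5.5e-10). Over the 8 lists around the 10 genes, 59 of 66 genes were tested, and 13 rose and 23 fell (61.0% called and 39.0% lower, against 52.8% and 26% of all genes). With library totals alone the counts were 22 and 14.

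Some neighbours in the genome could share reads with the clock genes if counting ignored the strand. NR1D1 shares 263 exonic bases with THRA, the thyroid hormone receptor alpha gene on the opposite strand. THRA fell by 0.27 on the log2 scale, from 50.9 ± 5.03 to 42.1 ± 2.33 CPM (SD, n = 3; adjusted p = 0.002), a smaller change than that of NR1D1. DBP shares 661 exonic bases with SPHK2 on the opposite strand, which rose from 13.98 ± 0.869 to 16.9 ± 0.991 CPM (SD, n = 3; adjusted p = 0.0064), against the direction of DBP. CLOCK shares 76 exonic bases with TMEM165, which fell by 0.12 on the log2 scale, also against the direction of CLOCK; that call was lost with library totals and without both libraries numbered 3. The genes that overlap the exons of PER1, PER2, PER3 and CRY1 were under 0.1 CPM on average in both groups.

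Outside the clock lists, the genes whose profile over the 6 libraries was most like that of NR1D1 were LINC01705, RIMKLA and SIGLEC9. The measure was the root mean square difference of log2 CPM, each gene centred on its own mean, among 13678 genes of at least 1 CPM on average, and it was 0.0423, 0.0439 and 0.0479 for the 3. For CLOCK the most alike were TTK, TASOR and DCUN1D1, at 0.0311, 0.0319 and 0.0342. All 6 libraries entered this measure, so the difference between the groups is part of it.

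**Figure D5:**
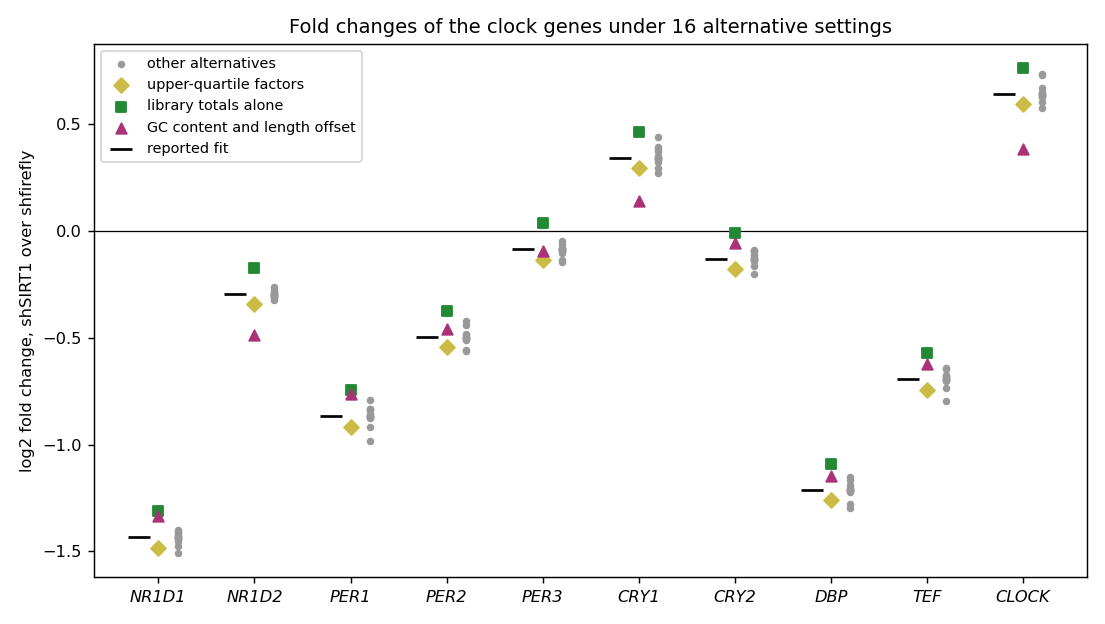
Log2 fold change of shSIRT1 over shfirefly (vertical axis) for the 10 clock genes in the reported fit (black bars) and under 16 alternatives, 3 of them marked by shape. The 6 genes that fell stayed below 0 and CLOCK and CRY1 above 0 under all 16, while PER3 lay at 0.035 with library totals alone.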

How the data were processed

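Counts of reads per gene, deposited by the authors as 1 table with a column for each of the 6 libraries, were used as they stood. Per the submitters' processing notes, Trimmomatic, STAR and DESeq2 were used with GRCh38; tool versions, the read counter, the annotation and the strand setting were not given in the sources used here. Libraries were made with a stranded mRNA kit, per the labels' protocols. The authors' rounded normalized counts (a score) and their dispersions (a score), deposited in the same table, entered no test. The authors' deposited linear fold change (a ratio) and unadjusted p-value were not used. Their log2 fold change and adjusted p-value were used only for a check. The authors' deposited log2 fold changes of the 10 genes differed from the fitted ones by at most 0.0030, and 8 had an adjusted p under 0.05. Control and hairpin columns were matched to samples by name.

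Genes were kept by filterByExpr, scaled by TMM and tested with edgeR 4.0.16 (R 4.3.3; robust quasi-likelihood fit on group), with Benjamini-Hochberg adjustment over all 16591 genes. Standard errors are the absolute log2 fold change over the square root of F. The common coefficient of biological variation was 0.0541. A gene without counts could still be present at up to 0.0968 to 0.115 CPM (3 counts, counting error only). Replicates of a group differed by more than sampling noise (mean chi-square per gene 2.82 to 6.10, highest for the pairs with shfirefly replicate 3). The procedure was tested on simulated counts. Positions came from GENCODE 29 (58504 of 60691 identifiers matched without version) and promoter sequences from RefSeq.

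The 10 genes and the 11 gene lists were chosen with earlier results of these data known. All 10 were named, with the loop genes, and up to 2 rises and 2 falls per further list; some genes of these lists are not reported here. Alternatives were RLE and upper-quartile factors, library totals, DESeq2 1.42.0, other filters, the replicate block, a fit without robust estimation, and leaving out each library. A GC and length offset (splines, 5 degrees of freedom) and leaving out both libraries numbered 3 were added after seeing the data.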

Additional observations from a re-analysis of the deposited data

How the results depend on the processing

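The count of clock genes that fell was 6 under all 16 alternatives, and the count that rose was 2 under 15 and 1 with the GC and length offset, where CRY1 had a log2 fold change of 0.14 (adjusted p = 0.099). The cause was not tested. PER3 turned to 0.035 with library totals alone and did not pass the test there either (adjusted p = 0.67). Of the 66 surrounding clock genes, library totals alone called 22 higher and 14 lower, against 13 and 23; the median over all genes was then 0.13 in log2. Leaving out each library in turn, the genes called of all tested numbered 7726 to 8869. Deviations of same-numbered libraries correlated at -0.01, -0.07 and 0.13, and those of differently numbered libraries at -0.15 to 0.17. These weak values cannot decide whether the replicate numbers pair the samples. With the replicate block 9176 genes were called (8760 without it), 8 clock genes among them, and the NR1D1 value was -1.43. DESeq2 called 7552 genes. No group had more than 3 libraries, so no outlier test was run and none was left out of the reported fit. The chi-square comparison above only described how shfirefly replicate 3 differed from the other controls.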
